A study of Mus musculus with 9 samples.

Results

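The transcripts described here encode 10 G protein-coupled receptors through which hormones, fatty acids and neurotransmitters act on pancreatic islets. The 10 were taken as a fixed list of gene symbols, chosen with earlier results of these data known. The symbols were Glp1r, Gipr, Gcgr, Ffar1, Ffar2, Ffar3, Gpr119, Adra2a, Sstr3 and Chrm3. They are 10 of the 56941 genes in the count table, and all 10 were among the 18548 genes kept by the low-count filter. The libraries came from islets, the clusters of endocrine cells in the pancreas, of wild-type male C57BL/6J mice that were 15 weeks old when their diets began. Feeding lasted 9 months, on a control diet low in fat (LFD, 10% fat), on a diet high in fat (HFD, 60%) or on a ketogenic one (KD, 89.9%). There were 3 LFD, 2 HFD and 4 KD libraries of poly(A) RNA, and the question was what a ketogenic diet changes in islet transcripts. The labels do not say whether a library held the islets of 1 mouse or of several, so p-values measure the spread between these libraries.

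Library totals ran from 15513502 to 26588390 counts, and a receptor had between 51 and 13629 counts in a library. Islet markers were present, since all 16 beta cell identity genes found in the table had counts in every library. Acinar markers, which belong to the exocrine pancreas around the islets, took very different shares of the counts. The 23 acinar genes held 34.1%, 24.0% and 14.5% of the counts in LFD replicates 1 to 3, 18.2% and 10.9% in the HFD libraries, and 57.6%, 42.6%, 53.9% and 19.5% in KD replicates 1 to 4, each with a 95% Wilson interval of at most 0.024 percentage points to either side (counting error only). By summed CPM (counts scaled to library size), LFD replicates 1 and 2 also stood apart for the 12 B and T lymphocyte markers, at 522 and 1268 CPM. The sums were 73.1 CPM in LFD replicate 3, 56.9 to 74.8 CPM on HFD and 6.95 to 27.2 CPM on KD. By the mean log2 CPM of the 12 genes all 3 LFD libraries stood apart, at 2.63, 3.88 and 1.35. That mean was -0.88 and -0.59 on HFD and -2.08 to -1.41 on KD. CPM values here are scaled by the trimmed mean of M-values (TMM). In bulk RNA, fewer cells of a type and less RNA per cell cannot be told apart.

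As background, islet hormone secretion is set by glucose and then tuned through G protein-coupled receptors. Glp1r, Gipr and Gcgr, the receptors for glucagon-like peptide 1, gastric inhibitory polypeptide and glucagon, couple to Gs and raise cyclic AMP, which amplifies insulin release. Gpr119, a receptor for oleoylethanolamide and related lipids, also couples to Gs. Ffar1 binds long-chain fatty acids and, like the muscarinic receptor Chrm3 that serves the vagal input to beta cells, signals through Gq. Ffar2 and Ffar3 bind short-chain fatty acids, while Adra2a and Sstr3 answer noradrenaline and somatostatin through Gi and lower insulin release.

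Of the 10 receptors, Gpr119 passed the test between diets. The Ffar genes form a cluster whose members Ffar1 and Ffar3 varied together over the libraries by Pearson r, though not by rank after adjustment. The windows upstream of Gpr119 and Ffar3 are shown. The Ffar1 window, not shown, held none of the sequences searched for. The RefSeq promoter table (GRCm38.p6) held 13 windows for 9 of the 10 receptors, and Gipr had none there. Each window below is the 250 bases before the annotated start, written 5′ to 3′ on the gene's own strand, with capitals marking the cyclic AMP response element or its core, TGACG. The Gpr119 window lies at chrX:48674479-48674728 and the Ffar3 window at chr7:30856179-30856428, both on the minus strand.
Gpr119: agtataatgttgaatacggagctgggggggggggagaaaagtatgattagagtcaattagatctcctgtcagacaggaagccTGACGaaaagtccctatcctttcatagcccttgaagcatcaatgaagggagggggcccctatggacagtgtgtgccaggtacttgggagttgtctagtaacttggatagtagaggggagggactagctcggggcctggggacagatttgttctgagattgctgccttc
Ffar3: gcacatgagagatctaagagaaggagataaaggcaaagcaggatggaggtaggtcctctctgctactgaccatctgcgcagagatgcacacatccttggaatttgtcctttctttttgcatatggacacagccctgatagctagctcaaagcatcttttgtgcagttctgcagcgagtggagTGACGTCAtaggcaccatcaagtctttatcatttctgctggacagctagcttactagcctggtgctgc
The Gpr119 window held 1 match to TGACG, beginning 168 bases before the start. The Ffar3 window held the full palindrome TGACGTCA, beginning 68 bases before the start, and both of its TGACG matches lie inside that palindrome. Searched on both strands, TGACG occurred in 17.8% of all 32851 windows and TGACGTCA in 1.55%. Among the 13 windows of the receptors, 4 held TGACG and 1 held TGACGTCA. The E-box CACGTG was in 3 of the 13 windows and in 6.02% of all windows. The nuclear receptor half-site AGGTCA was in 3 of the 13 and in 14% of all. All 3 are windows of Ffar2, and 2 of them overlap and hold the same site. The TATA sequence TATAAA was in 1 of the 13 (Adra2a) and in 12.4% of all. These matches describe letters in a window and say nothing of which factors bind there.

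Glp1r was the most abundant of the receptor transcripts, and Ffar2 and Gcgr were the least abundant. Levels between genes are compared as CPM per kilobase of exon, averaged over the 9 libraries with the SD across them. Glp1r stood at 81.2 ± 14.9 (SD, n = 9 libraries), followed by Sstr3 at 31.6 ± 8.39 and Ffar1 at 18.5 ± 4.77. Adra2a (9.86 ± 2.64), Gipr (7.92 ± 1.09) and Gpr119 (6.29 ± 2.35) formed the middle of the order. Below them came Chrm3 (5.41 ± 0.846), Ffar3 (4.61 ± 1.01), Gcgr (3.00 ± 0.742) and Ffar2 (2.56 ± 1.20). The ranges of Glp1r and Sstr3 did not overlap, while every other receptor overlapped the next in the order. Within single libraries Sstr3 lay above Ffar1 and Ffar1 above Adra2a in 9 of 9 libraries, whereas Adra2a lay above Gipr in 5 of 9, which does not separate those neighbours. On LFD the mean of Gpr119 was 8.86 CPM per kilobase, next to 8.77 for both Adra2a and Gipr, and on KD it was 4.18, below Chrm3 at 5.53.

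Glp1r, Ffar1, Adra2a, Sstr3 and Chrm3 each had the highest mean level of their family in these libraries, which held acinar as well as islet RNA. Sstr3 exceeded the other somatostatin receptors, since Sstr2 reached 1.62 CPM per kilobase, Sstr1 0.304, Sstr4 0.0617 and Sstr5 0.0025, the last from 1 count in all 9 libraries. Among the α2-adrenergic receptors, Adra2c stood at 0.0703 and Adra2b at 0.0395 CPM per kilobase, both under the low-count filter. Of the muscarinic receptors, Chrm4 was next to Chrm3 at 1.69, and Chrm5 had 1 count in all libraries. The long-chain fatty acid receptor Ffar4 stood at 2.10, below Ffar1. In the class B family of peptide hormone receptors, the VIP receptor Vipr1 lay between Glp1r and Gipr at 8.72, and the PACAP receptor Adcyap1r1 was lower than Gcgr at 1.19, while Glp2r stayed under the filter with 69 counts in all.

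**Figure D1:**
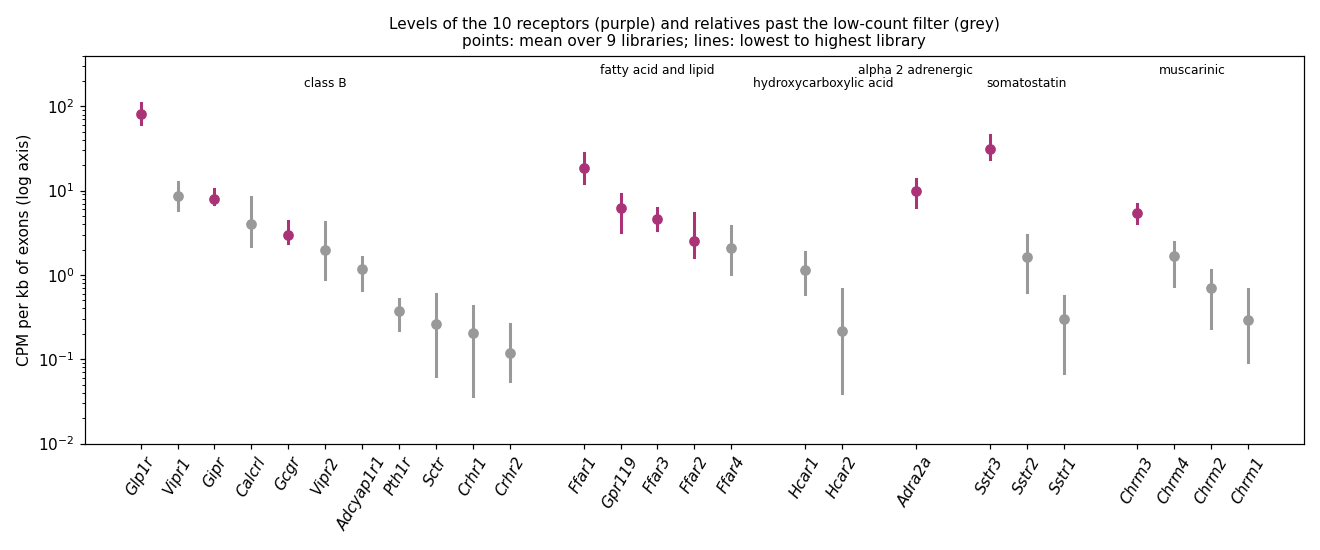
Mean CPM per kilobase of exon over 9 libraries (points, log axis) with the lowest and highest library (lines), for the 10 receptors in purple and for relatives past the low-count filter in grey, by family. Glp1r stands highest at 81.2, and Sstr3, Adra2a, Chrm3 and Ffar1 lead their families.

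The incretin and glucagon receptors did not pass the test between any of the 3 diets. Glp1r measured 359, 412 and 639 CPM in LFD replicates 1 to 3, 441 and 506 CPM in the HFD libraries, and 430, 565, 418 and 475 CPM in KD replicates 1 to 4. All HFD and KD values fell within the LFD range. The KD to LFD difference in log2 CPM was 0.0069 ± 0.21 (SE), with a 95% interval from -0.45 to 0.47 (edgeR adjusted p = 0.989). The HFD to LFD difference had an interval from -0.54 to 0.56.

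Gipr measured 26.7, 28.0 and 36.8 CPM on LFD, 24.2 and 29.3 CPM on HFD, and 26.3, 25.3, 26.5 and 24.9 CPM on KD. All 4 KD libraries lay below all 3 LFD libraries, though the closest were 26.5 and 26.7 CPM. The KD to LFD log2 difference was -0.25 ± 0.14 (SE), with an interval from -0.56 to 0.06, and did not pass the test (edgeR adjusted p = 0.326). Gcgr, through which alpha cell glucagon acts back on beta cells, measured 6.25, 9.41 and 10.1 CPM on LFD, 7.25 and 11.5 CPM on HFD, and 6.38, 6.46, 6.77 and 6.63 CPM on KD. The KD libraries were close together and lay below both HFD libraries, but the lowest LFD library was lower still. Its log2 difference was -0.39 ± 0.22 (SE) for KD against LFD (edgeR adjusted p = 0.320) and -0.52 ± 0.25 for KD against HFD (interval -1.06 to 0.03, edgeR adjusted p = 0.238). The other members of the class B family, 12 receptors of which 8 were tested, gave 0 edgeR calls in any contrast, with 2 at an unadjusted p below 0.05 in each. DESeq2 called 1 for KD against LFD and 2 for KD against HFD, and limma-voom called 1 and 0. Over all genes DESeq2 called 1773 and 1518 in those contrasts, and limma-voom 1873 and 0. The secretin receptor Sctr, named after its values were seen, had the lowest p for KD against LFD, at 0.797 to 1.21 CPM on LFD and 0.156 to 0.269 CPM on KD (edgeR adjusted p = 0.0571). Vipr1, the most abundant of these, stood at 42.3 to 46.9 CPM on LFD and 52.1 to 73.0 CPM on KD (edgeR adjusted p = 0.0972).

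**Figure D2:**
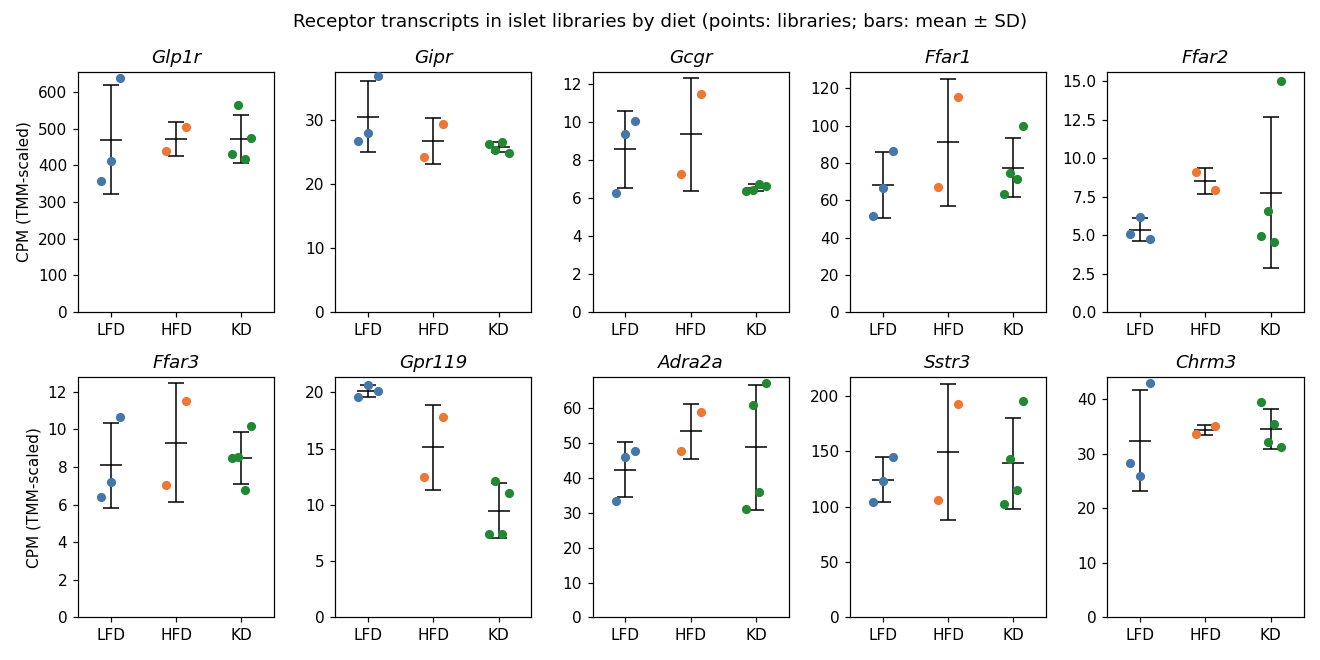
TMM-scaled CPM of the 10 receptors in each islet library (points), by diet, with the mean and SD (bars), on axes starting at 0. Of the 10, Gpr119 alone has its HFD libraries between the LFD and KD libraries and no overlap. It stands at 19.6 to 20.7 CPM on LFD, 12.5 and 17.8 on HFD and 7.39 to 12.1 on KD. Pairs of diets did not overlap for 19.7% to 33.9% of all genes, and the share of all genes with such an order was not counted.

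Gpr119 transcripts were lower in islets of KD mice, at 0.476 of the LFD level. Gpr119 measured 19.6, 20.7 and 20.1 CPM in LFD replicates 1 to 3, 12.5 and 17.8 CPM in the HFD libraries, and 7.39, 12.1, 7.39 and 11.0 CPM in KD replicates 1 to 4. The 3 LFD libraries lay close together, and every KD library was below every HFD library and every HFD library below every LFD library. The means were 20.1 ± 0.549 CPM (SD, n = 3), 15.1 ± 3.76 CPM (SD, n = 2) and 9.48 ± 2.45 CPM (SD, n = 4). Gpr119 fell by 1.07 ± 0.21 (SE) on the log2 scale between LFD and KD (edgeR adjusted p = 0.0215), which puts LFD 2.10-fold above KD with a 95% interval from 1.54 to 2.88. It was also the one receptor that passed the joint test of the 3 diets (edgeR adjusted p = 0.0481), a call lost when libraries were scaled to the beta cell identity list, with a filter of at least 1 CPM in 3 libraries, with a lymphocyte score as a covariate, without KD replicates 1 and 3 together, and on leaving out any single library other than KD replicate 4.

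The background share of genes is needed to read these counts. Between KD and LFD, 4.12% of the 18548 genes passed the test in either direction and 3.14% were lower on KD, against 1 of the 10 receptors, Gpr119, which was lower. By p, Gpr119 ranked at place 234 among the 764 genes called. An unadjusted edgeR p below 0.05 was found for 4215 of the 18548 genes and for 1 of the 10 receptors. The joint test called 2.17% of genes and 1 of the 10 receptors. Libraries of KD and LFD did not overlap for 19.7% of genes and for 2 of the 10 receptors, Gpr119 and Gipr. The receptors' median log2 difference between KD and LFD was 0.082, against -0.020 over all genes, and 7 of the 10 were above 0.

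For HFD the test separated no receptor from LFD. edgeR called 0% of all genes for HFD against LFD, with 1853 genes at an unadjusted p below 0.05, where DESeq2 called 268 and limma-voom 11. Of the 10 receptors, 0 had an unadjusted p below 0.05, and 0 were called by DESeq2 or limma-voom. The libraries of HFD and LFD did not overlap for Gpr119, Ffar2 and Adra2a, 3 of the 10 receptors, where 27.5% of all genes did not overlap. The HFD to LFD log2 difference of Gpr119 was -0.41 ± 0.25 (SE), with an interval from -0.96 to 0.13 (edgeR adjusted p = 0.587). Between KD and HFD, edgeR also called 0% of genes, with 4215 at an unadjusted p below 0.05, where DESeq2 called 1518 and limma-voom 0, and none of these tools called a receptor. Gpr119 was the 1 receptor at an unadjusted p below 0.05, with a log2 difference of -0.66 ± 0.23 and an interval from -1.17 to -0.15 (edgeR adjusted p = 0.146). Libraries of those diets did not overlap for 2 of the 10 receptors, Gpr119 and Gcgr, and for 33.9% of all genes. The comparisons share their LFD, HFD or KD libraries, so they are not independent of one another.

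**Figure D3:**
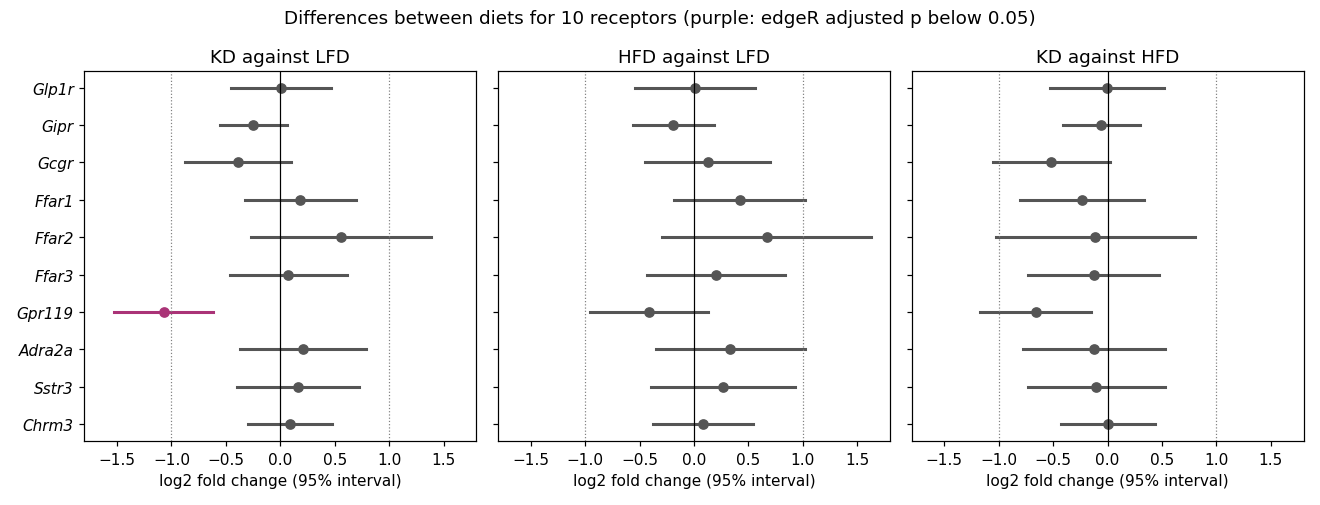
Log2 fold changes (points) with 95% intervals (lines) of the 10 receptors in each of 3 comparisons, with dotted lines at a 2-fold change and purple for an edgeR adjusted p below 0.05. For KD against LFD the interval of Gpr119 runs from -1.53 to -0.62, and the intervals of the other receptors include 0.

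Because the share of acinar RNA differs between libraries, Gpr119 was also set against the other receptors within each library, a comparison that needs no scaling between libraries and was chosen after the values were seen. Per 100 counts of Glp1r there were 5.45, 5.02 and 3.15 counts of Gpr119 on LFD, 2.83 and 3.51 on HFD, and 1.72, 2.14, 1.77 and 2.32 on KD. The lowest LFD ratio had an exact 95% counting interval from 2.85 to 3.47 and the highest KD ratio one from 2.04 to 2.64, which cover counting error and leave out the spread between libraries. The ratio of Gpr119 to each of the 9 other receptors was lower in every KD library than in every LFD library. Log2 differences of the ratios ran from -1.49 for Ffar2 to -0.76 for Gcgr. The 9 ratios share their numerator, and Gpr119 was set as numerator after it had passed the test, so they are given as a description with no test.

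**Figure D4:**
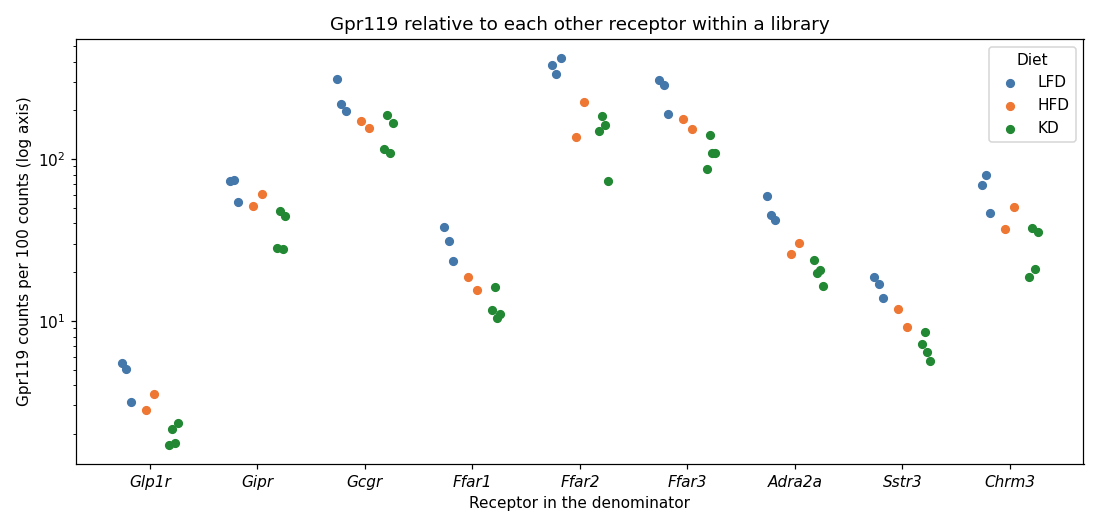
Gpr119 counts per 100 counts of each other receptor in the same library (points, log axis), by diet. For each of the 9 denominators the 4 KD points lie below the 3 LFD points, for example 1.72 to 2.32 against 3.15 to 5.45 for Glp1r.

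Markers of other cells also differed between libraries, not all in the diet order of Gpr119. Their part in the Gpr119 difference was not tested beyond the values that follow. KD replicates 1 and 3, with the highest acinar shares, had the lowest Gpr119 values, at 7.39 CPM each. KD replicate 4, whose acinar share of 19.5% lay inside the LFD range, had 11.0 CPM, below all LFD and HFD libraries. With an acinar score as a covariate the log2 difference between KD and LFD was -0.84 (edgeR adjusted p = 0.0236), and without KD replicates 1 and 3 it was -0.80 (edgeR adjusted p = 0.119). The summed lymphocyte markers were 6.95 to 27.2 CPM on KD and 73.1 to 1268 CPM on LFD, and 2 to 7 of the 12 genes were at 0 in a KD library. LFD replicate 3, whose lymphocyte sum was 73.1 CPM, had 20.1 CPM of Gpr119, and LFD replicate 2, at 1268 CPM, had 20.7. By the mean log2 CPM of the 12 genes, LFD replicate 3 at 1.35 was above every HFD and KD library, which reached at most -0.59. With a lymphocyte score as a covariate the difference was -0.77 and was not called (edgeR adjusted p = 0.629), in a fit that called 0 of all genes. The 16 beta cell identity genes summed to 3182, 3483 and 4498 CPM on LFD, 4331 and 4698 on HFD, and 2245, 3616, 2902 and 4893 on KD. Markers of further cell types were also measured. The median log2 difference between KD and LFD was 0.241 for 9 alpha genes, 0.046 for 4 delta genes and -0.0315 for 7 endothelial genes. It was -0.236 for 8 Schwann and neuron genes and -0.158 for 3 beta cell hormone genes. In these lists edgeR called 0 genes, and lists with 1 gene tested are left out. The 9 macrophage genes summed to 73.2 to 130 CPM on LFD, 90.6 and 120.5 on HFD and 36.3 to 71.9 on KD, and the 9 fibroblast and stellate genes to 432 to 809 on LFD, 487 and 617 on HFD and 216 to 463 on KD. All 9 genes of each list had log2 differences below 0 between KD and LFD, with medians of -0.67 and -0.72, and 1 macrophage gene and 0 of the others were called. Of the 9 duct genes 3 were called lower on KD, and their sum was 459 to 560 CPM on LFD, 313 and 334.5 on HFD and 334 to 462 on KD. Scaling every library to the beta cell identity list gave a Gpr119 difference of -1.16 (edgeR adjusted p = 0.0363). The call was lost without LFD replicate 1 (-1.10, edgeR adjusted p = 0.0723), LFD replicate 2 (-1.05, 0.0648) or KD replicate 3 (-0.97, 0.0641).

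The free fatty acid receptors did not pass the test in any contrast. Ffar1 measured 51.4, 66.3 and 86.4 CPM on LFD, 66.9 and 115 CPM on HFD, and 63.1, 74.9, 71.4 and 99.9 CPM on KD. The 3 diets overlapped, and the log2 difference between KD and LFD was 0.18 ± 0.23 (SE) with an interval from -0.32 to 0.69 (edgeR adjusted p = 0.672). Ffar2 measured 5.09, 6.18 and 4.78 CPM on LFD, 9.10 and 7.92 CPM on HFD, and 4.98, 6.55, 4.54 and 15.0 CPM on KD. Both HFD libraries were above all LFD libraries, while on KD a single library, replicate 4, stood far above the other three. Its log2 differences were 0.67 ± 0.44 (SE) for HFD and 0.55 ± 0.38 for KD against LFD (edgeR adjusted p = 0.616 and 0.409), with intervals reaching 1.63 and 1.38, so a difference of more than 2-fold is not outside them. Ffar3 measured 6.38, 7.21 and 10.7 CPM on LFD, 7.05 and 11.5 CPM on HFD, and 8.48, 8.55, 6.77 and 10.2 CPM on KD. Its diets overlapped as well, with a KD to LFD interval from -0.46 to 0.61 around 0.08 (edgeR adjusted p = 0.888).

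The receptors that restrain or stimulate beta cells through nerves and somatostatin did not pass the test either. Adra2a measured 33.3, 46.1 and 47.7 CPM on LFD, 47.8 and 58.9 CPM on HFD, and 31.0, 60.9, 36.0 and 67.1 CPM on KD. The KD libraries fell into a low pair, replicates 1 and 3, and a high pair, replicates 2 and 4. The high pair lay above all LFD values, and of the low pair replicate 3 lay inside the LFD range. The log2 difference between KD and LFD was 0.21 ± 0.26 (SE), with an interval from -0.37 to 0.79 (edgeR adjusted p = 0.679). Sstr3 measured 104.5, 123 and 145 CPM on LFD, 106.0 and 193 CPM on HFD, and 102, 143, 115 and 195.5 CPM on KD. It had the same low libraries on KD, and its KD to LFD difference was 0.16 ± 0.25 (SE) with an interval from -0.39 to 0.72 (edgeR adjusted p = 0.743). Chrm3 measured 28.3, 26.0 and 43.1 CPM on LFD, 33.7 and 35.1 CPM on HFD, and 39.4, 32.2, 35.4 and 31.2 CPM on KD. All HFD and KD values lay inside the LFD range, with an interval for KD against LFD from -0.30 to 0.47 around 0.09 (edgeR adjusted p = 0.806). With the acinar score as a covariate, Ffar1 (0.59), Adra2a (0.62) and Sstr3 (0.59) were higher on KD and passed the test (edgeR adjusted p = 0.0376, 0.0382 and 0.0271), as they did in no other alternative.

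Sstr3, Ffar1 and Adra2a varied with the beta cell identity list from library to library. Over the 9 libraries the correlation of log2 CPM with the mean of that list was 0.909 for Sstr3, 0.898 for Adra2a and 0.894 for Ffar1. Their exact permutation p-values adjusted over the 20 relations tested, 10 receptors with the beta cell and acinar lists, were 0.0109, 0.0135 and 0.0109. Spearman's rho was 0.950, 0.917 and 0.917 (adjusted exact permutation p = 0.00705, 0.00874 and 0.00874), and r without the 2 libraries farthest from the median was 0.835, 0.774 and 0.818. Centred within diets, r was 0.918, 0.893 and 0.899. For Gpr119 r was 0.297 over the 9 libraries and 0.718 within diets, and Chrm3 had 0.165 and 0.128. None of the 10 relations with the acinar list passed after adjustment. For Gpr119 that r was -0.697 (exact permutation p = 0.0424, adjusted 0.121), -0.153 without the 2 farthest libraries and -0.716 within diets. Within diets the r with the acinar list was also -0.924 for Sstr3, -0.889 for Adra2a and -0.881 for Ffar1, about as far from 0 as with the beta cell list.

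**Figure D5:**
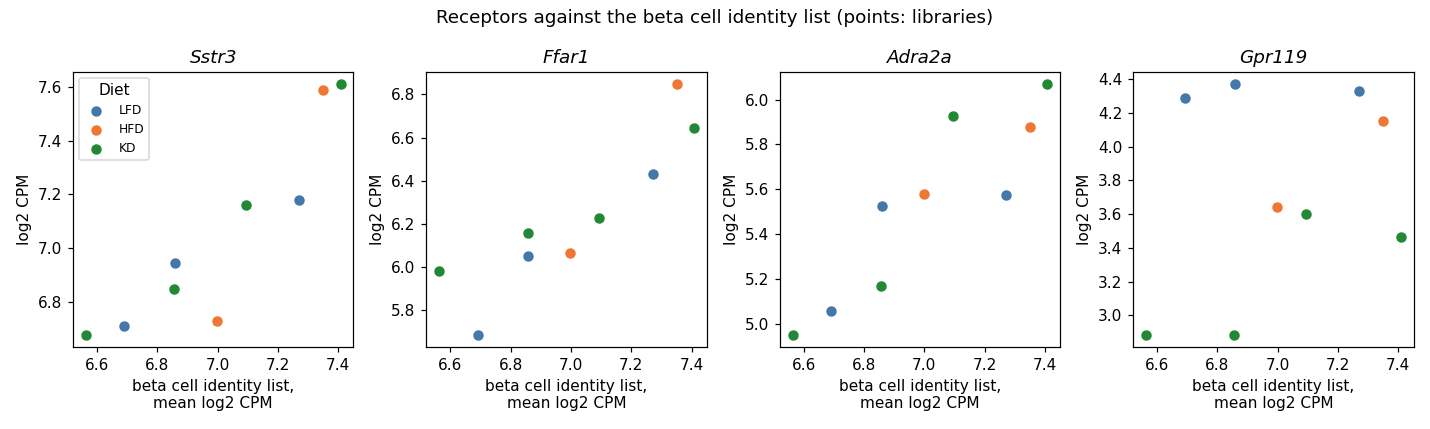
Log2 CPM of 4 receptors against the mean log2 CPM of 16 beta cell identity genes, 1 point a library, coloured by diet. Sstr3, Ffar1 and Adra2a follow the list (r = 0.909, 0.894 and 0.898), while the LFD points of Gpr119 lie above the others at r = 0.297.

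Among the receptors themselves, 38 of the 45 pairs correlated above 0, and 2 pairs passed the adjustment over the 45. Ffar1 and Sstr3 correlated at r = 0.928 (exact permutation p = 0.000259, adjusted 0.0117) and rho = 0.917 (exact permutation adjusted p = 0.059), with r = 0.798 without the 2 farthest libraries and 0.944 centred within diets. Ffar1 and Ffar3 correlated at r = 0.884 (exact permutation p = 0.0011, adjusted 0.0248) and rho = 0.817 (exact permutation adjusted p = 0.121), with 0.763 without the 2 farthest libraries and 0.892 within diets. By rank neither pair passed the adjustment. Ffar1 and Ffar3 are neighbouring genes, and gene-level counts cannot tell a shared transcript from separate ones. Gpr119 correlated with the other receptors between -0.335 and 0.624. As a description over the 9 libraries, the genes most like Gpr119 in log2 CPM were picked by r among 10344 protein-coding genes with a mean of at least 5 CPM. They were Anxa5 (r = 0.968, rho = 0.817) and Glb1l (r = 0.960, rho = 0.9). For Sstr3 the nearest by r was Fam20c (r = 0.986, rho = 0.95), for Gipr Pkp4 (0.976, 0.9) and for Glp1r Aqr (0.963, 0.967).

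Beyond the 10, 24 other receptors for lipids and metabolites were listed, of which 19 were tested. For KD against LFD their median log2 difference was -0.047 beside -0.020 for all genes. DESeq2 called 4 of the 19 and limma-voom 2, beside 1773 and 1873 of all genes. By edgeR 1 passed for KD against LFD, lower. That one was Cnr2, a cannabinoid receptor of immune cells, at 0.858, 3.32 and 1.45 CPM on LFD and 0 to 0.178 CPM on KD (edgeR adjusted p = 0.0186), the diet on which the lymphocyte markers were also low. The lysophosphatidic acid receptor Lpar6 passed the joint test of the 3 diets (edgeR adjusted p = 0.0413), at 8.30 to 10.7 CPM on LFD, 11.1 and 13.5 on HFD and 5.17 to 6.90 on KD. Hcar1, the lactate receptor, measured 2.45, 2.91 and 1.97 CPM on LFD and 4.05, 4.05, 5.52 and 6.18 CPM on KD. These did not overlap, with a log2 difference of 1.02 ± 0.27 (SE), but missed the threshold (edgeR adjusted p = 0.0579). Hcar2, the receptor for the ketone body β-hydroxybutyrate, stayed at 0.0778 to 1.30 CPM in all diets, with a KD to LFD interval from -1.96 to 1.91 around -0.02 (edgeR adjusted p = 0.991). Cd22, a B cell gene beside the Ffar cluster, fell by 5.13 on the log2 scale (edgeR adjusted p = 0.0115), while neither Ffar1 nor Ffar3 was called.

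In the 6 lists of signalling, ligand and trafficking genes, 6 of 132 tested genes passed for KD against LFD, or 4.55%, beside 4.12% of all genes. Of all 18548 genes, 4215 had an unadjusted edgeR p below 0.05 in that contrast, DESeq2 called 1773 and limma-voom 1873. Of 28 G protein subunits, 24 were tested and 0 passed in edgeR (4 at an unadjusted p below 0.05, 2 called by DESeq2 and 2 by limma-voom). Their median log2 difference between KD and LFD was 0.249, beside -0.020 for all genes. Of the 24, 19 were above 0, and the share of all genes above 0 was not counted. Gnas, which encodes the Gs α subunit that Glp1r, Gipr, Gcgr and Gpr119 couple to, measured 562.5, 641 and 601.5 CPM on LFD and 796, 783, 740 and 931 CPM on KD. Those values did not overlap, and the difference of 0.43 ± 0.16 (SE) missed the threshold (edgeR adjusted p = 0.139). Among 31 cyclic AMP effectors and phosphodiesterases, all tested, 1 rose and 0 fell in edgeR, and DESeq2 and limma-voom called 4 each. The one was Prkaca, the catalytic subunit of protein kinase A, at 51.6, 57.4 and 55.4 CPM on LFD and 79.5, 81.3, 74.0 and 80.2 CPM on KD (log2 difference 0.52 ± 0.11, edgeR adjusted p = 0.0308), called in 14 of 22 alternatives. The phospholipase C and protein kinase C list had 0 edgeR calls among 22 genes, 7 at an unadjusted p below 0.05, and 2 calls each by DESeq2 and limma-voom. Of 47 other amine, acetylcholine, purine and neuropeptide receptors, 25 were tested and edgeR called 0, with 6 at an unadjusted p below 0.05, 0 called by DESeq2 and 3 by limma-voom.

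Of 25 genes that desensitise receptors or shut off G proteins, 1 rose and 2 fell between LFD and KD, where 4.12% of all genes passed. DESeq2 and limma-voom called 6 of these genes each, where they called 1773 and 1873 of all genes. Rgs4, which speeds GTP hydrolysis by Gq and Gi, measured 28.4, 39.2 and 28.3 CPM on LFD, 26.7 and 30.0 on HFD, and 13.5, 15.9, 10.5 and 19.9 CPM on KD. All KD libraries were below the others, and the fall was 1.09 ± 0.21 (SE) on the log2 scale (edgeR adjusted p = 0.0200). Gpsm1, a regulator of Gi signalling, rose by 0.81 ± 0.15 (SE, edgeR adjusted p = 0.0210), and Rgs1, an immune cell regulator, fell by 2.78 ± 0.55 (edgeR adjusted p = 0.0237). With the lymphocyte score as a covariate the log2 difference was 0.47 for Rgs1 and -0.06 for Rgs4, and neither was called. Among the 14 tested of 15 trafficking and accessory genes edgeR called 2, DESeq2 3 and limma-voom 4. The recycling GTPase Rab4a rose by 0.91 ± 0.20 (SE, edgeR adjusted p = 0.0305, called in 13 of 22 alternatives). Rab4a also lay above LFD on HFD, at 7.85 and 8.42 CPM against 4.88 to 5.33 CPM, and did not pass (edgeR adjusted p = 0.416). The receptor transporter Rtp4 fell by 1.25 ± 0.31 between LFD and KD (edgeR adjusted p = 0.0497, called in 9 of 22). Of 21 ligands and their enzymes, 16 were tested and 0 passed in edgeR, 3 having an unadjusted p below 0.05 and 1 being called by each other tool. Sst, the ligand of Sstr3, measured 669 to 832 CPM on LFD and 593 to 1100 CPM on KD, and Gcg, the precursor of the ligands of Gcgr and Glp1r, measured 6966 to 10090 CPM on LFD and 7114 to 15790 on KD. Gip was listed at 0 in every library.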

How the data were processed

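Poly(A) RNA was sequenced in directional libraries, and the authors deposited whole-number counts for 56941 genes, 51948 of which matched a symbol. Per the submitters' processing notes, cutadapt 1.16, STAR 2.7.9a, featureCounts 1.6.3 and DESeq2 1.40.2 were used, with GRCm39. The annotation release and strand setting are not given in the sources used here. No gene coordinates of that build are printed.

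Counts were tested with edgeR 4.0.16 (R 4.3.3): filterByExpr by diet, TMM scaling, robust quasi-likelihood, all 9 libraries with a mean per diet, two-sided, Benjamini-Hochberg over 18548 genes, threshold 0.05. An SE was the log2 change divided by the root of its F. Log2 CPM used a prior count of 2, and exon lengths came from GENCODE M21. DESeq2 1.42.0, limma 3.58.1 voom, other scalings and filters, cell-type covariates and omitted libraries were alternatives, and the fit was tested on simulated data. Genes named were the 10 receptors, Hcar1, Hcar2, Cd22, and from each pathway list those past the threshold or most abundant. Members and lists were chosen with earlier results of these data known. The family levels, Gpr119 ratios and lymphocyte covariate were chosen after their values were seen. Replicate numbers were not used as pairs, the labels name no batch, and a batch effect cannot be told apart from diet.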

Additional observations from a re-analysis of the deposited data

Results flagged for a closer look

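One of 62 groups of 4 KD libraries held a library far from the other three by Dixon's criterion at 95%. Sst, which encodes the somatostatin that acts on Sstr3, measured 672, 679, 593 and 1100 CPM in KD replicates 1 to 4, and replicate 4 was the outlying value. Chance flags about 1 in 20 such groups. KD replicate 4 also had the smallest acinar share on KD, 19.5%, and the highest Ffar2, Sstr3, Ffar1 and Adra2a values of its diet. The part of library make-up in the Sst value was not tested.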

How the results depend on the processing

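The KD to LFD difference of Gpr119 was below 0 in all 22 alternatives, between -1.21 and -0.77 on the log2 scale, and was called in 17 of them (adjusted p from 0.000225 to 0.629). The number of receptors called for KD against LFD, 1 in the fit reported, was 4 with the acinar score as a covariate (Gpr119, Ffar1, Adra2a and Sstr3), and 0 with the lymphocyte score or without KD replicates 1 and 3, both chosen after seeing the data. It ranged from 0 to 1 when single libraries were left out. In the joint test the count of 1 became 0 with libraries scaled to the beta cell identity list, with a filter of at least 1 CPM in 3 libraries, with the lymphocyte score and without KD replicates 1 and 3, and ranged from 0 to 1 over the omitted libraries, where it stayed 1 without KD replicate 4. HFD against LFD and KD against HFD gave 0 receptors in every alternative. With the lymphocyte score the differences of Rgs1 and Cd22 turned from -2.78 and -5.13 to 0.47 and 0.18. The cause of these changes was not tested.

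Of the 27 comparisons of the other 9 receptors, 24 were called in no alternative. Over all genes, KD against LFD had 764 calls, against 1773 with DESeq2, 1873 with limma-voom, 1443 with the acinar and 2723 with the beta cell score as a covariate, 276 when scaled to the beta cell list, 64 without KD replicates 1 and 3, 0 with the lymphocyte score and 151 to 1348 without single libraries. Same-numbered libraries deviated together with correlations from -0.016 to 0.222 over 7 pairs, against -0.277 to 0.238 over 19 other pairs, so the numbers were not taken as pairs. With the replicate block, 1 receptor was called for KD against LFD and 1 in the joint test, Gpr119 in both, at -1.19 (adjusted p = 0.00392), 0 in the other contrasts, and 2003 genes in all. Ffar2 had the fewest counts, 51 in KD replicate 3, and groups of 2 to 4 libraries limit every interval.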

Other observations

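Of 52 other receptors tested from the lists, 9 had their KD libraries in the order of the acinar shares and 9 in the opposite order. The share of all genes with either order was not counted, so these counts do not set the receptors apart from other genes. Of the first 9, the 3 that the naming rule covers are described. The VIP receptor Vipr2 measured 18.8, 9.89, 14.8 and 4.53 CPM in KD replicates 1 to 4, in the same order as the acinar shares of 57.6%, 42.6%, 53.9% and 19.5%, and 4.55 to 9.32 CPM on LFD (edgeR adjusted p = 0.295). Cckar, the cholecystokinin receptor, measured 487, 233, 453 and 85.1 CPM in the same libraries and 48.2 to 152 CPM on LFD (edgeR adjusted p = 0.165). The prostaglandin receptor Ptger3 measured 179, 94.7, 159 and 35.0 CPM on KD and 26.4 to 58.2 CPM on LFD (edgeR adjusted p = 0.151). None of these 3 passed the test. Of the receptors in the opposite order, the naming rule covers P2ry1, Casr, Gabbr2 and Hcar2. In KD replicates 1 to 4 P2ry1 measured 43.65, 96.9, 62.2 and 122 CPM, and Casr 53.4, 74.3, 59.3 and 90.7 CPM. Gabbr2 measured 21.2, 42.4, 26.1 and 51.2 CPM, and Hcar2 0.0778, 0.356, 0.178 and 1.30 CPM. Between KD and LFD these did not pass either (edgeR adjusted p from 0.604 to 0.991).

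Among relatives of the listed receptors, Sstr2 and Chrm4 were picked after their values were seen. The somatostatin receptor Sstr2 measured 3.92, 5.24 and 3.14 CPM on LFD, 1.65 and 1.34 CPM on HFD, and 6.30, 3.61, 3.47 and 2.51 CPM on KD. Both HFD libraries lay below the rest, and the comparison of HFD with LFD did not pass (edgeR adjusted p = 0.332). Chrm4, a muscarinic receptor that couples to Gi, measured 1.08 to 1.84 CPM on LFD and 2.33 to 3.36 CPM on KD without overlap (edgeR adjusted p = 0.108).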
